A study of Rattus norvegicus with 6 samples.

Results

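Genes of plasminogen activation and of the anticoagulant pathway were followed in the metrial gland of pregnant rats held in low oxygen. The set comprised 9 genes, Plau, Plaur, Plat, Serpine2, Serpinb2, F3, Thbd, Procr and Tfpi, taken by name, and all 9 were on the array, in 14 of its 31042 probe sets that are not controls. The metrial gland is the maternal side of the rat placental bed, rich in uterine natural killer cells, decidual stroma and spiral arteries. Arrays labelled hypoxia (10.5% oxygen, n = 3) came from rats whose exposure began on gestation day 6.5 and ended on day 13.5, and arrays labelled ambient (21% oxygen, n = 3) from rats in room oxygen over the same days. The labels give neither strain nor animal age, and nothing states whether a replicate was 1 animal or a pool, so the p-values measure the spread between these arrays, which may be technical. Each array gives 1 log2 expression value for each probe set, the group of probes that reads a transcript.

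Plasminogen activators, urokinase (Plau) and tissue plasminogen activator (Plat), cut plasminogen to plasmin, the protease that dissolves fibrin and helps cells move through matrix. Urokinase works at the cell surface on its receptor (Plaur), and serpins such as Serpine2 and Serpinb2 block the activators. Clotting starts from the other side, when tissue factor (F3) meets plasma factor VII, a step that Tfpi inhibits, while thrombomodulin (Thbd) and the endothelial protein C receptor (Procr) turn thrombin toward activating the anticoagulant protein C. In mice, trophoblast giant cells that line maternal blood spaces carry thrombomodulin and the protein C receptor, and in humans decidual stromal cells are a known source of tissue factor.

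Tissue factor and the anticoagulant genes that passed moved in opposite directions. F3 fell, and Tfpi and Procr rose at 1 probe set each, with the second Tfpi probe set higher by a like amount but not past the threshold. Among the activators of plasminogen, Plat rose slightly, and neither probe set of Plau passed. By gene, 3 of the 9 rose, 1 fell and 5 had no probe set past the threshold. Of the 14 probe sets, 12 passed the filter on low means, and 4 of these passed limma at an adjusted p of 0.05, 3 higher and 1 lower. Over all 18625 probe sets kept, 5.99% passed, 4.02% higher and 1.97% lower. The groups did not overlap in 7 of the 12, 6 higher and 1 lower, where 29.9% of all kept probe sets did not overlap, 15.8% higher and 14.1% lower. The median difference was 0.25 over the 12 and 0.0034 over all kept probe sets.

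**Figure D1:**
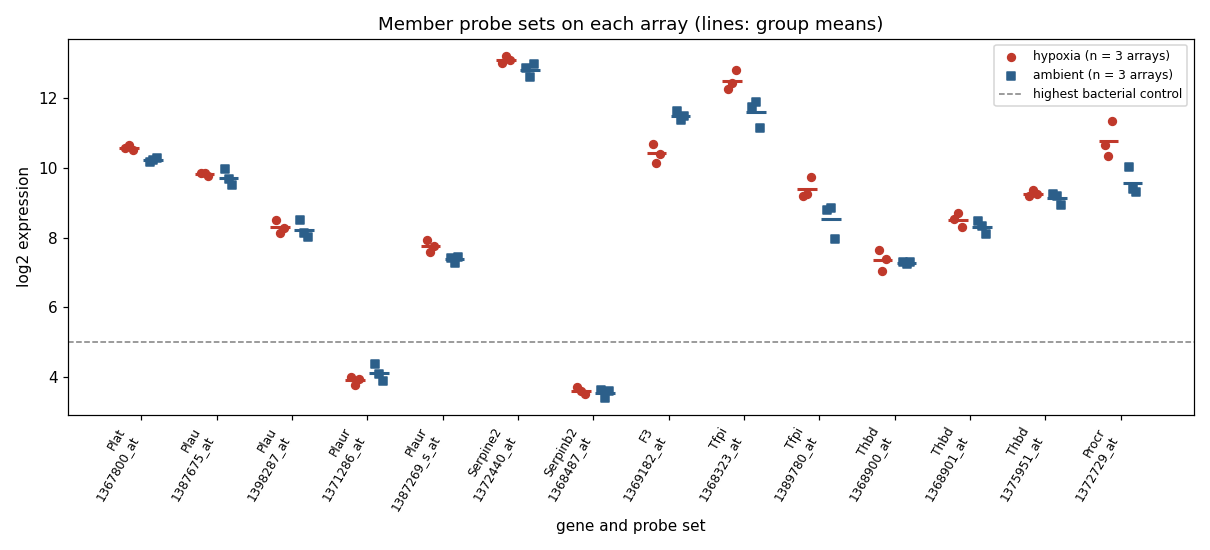
Log2 expression of the 14 member probe sets (horizontal axis) on each array, with 3 hypoxia arrays as red circles and 3 ambient arrays as blue squares; short lines are group means and the dashed line is the highest bacterial control value on any array. F3 is lower on the 3 hypoxia arrays, Tfpi, Procr and Plat are higher, and 1 probe set of Plaur and that of Serpinb2 lie under the dashed line.

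The tissue label was checked against marker genes. Of 9 kept natural killer cell markers, the brightest was the granule protease gene Gzmb, at 14.27 ± 0.10 in hypoxia and 14.47 ± 0.05 in ambient (SD, n = 3 each), while Ncr1 was at 6.80 in hypoxia and 6.81 in ambient. The decidual hormone gene Prl8a2 was at 13.24 ± 1.10 in hypoxia and 11.51 ± 0.24 in ambient. Array medians lay between 6.44 and 6.47, and arrays of a group correlated at 0.989 to 0.993 across the kept probe sets. The beta-actin control probe sets read RNA integrity as the log2 signal near the 3' end minus that near the 5' end, which was 0.58 to 0.77 on hypoxia arrays and 0.41 to 0.54 on ambient arrays. These ranges did not overlap, and the part of RNA integrity in the differences was not tested. Being bulk tissue, the arrays do not tell fewer cells of a type from less RNA per cell.

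Plat encodes tissue plasminogen activator, which endothelium releases and which works best on fibrin. Its values were 10.55, 10.65 and 10.51 on the hypoxia arrays, against 10.16, 10.23 and 10.27 on the ambient arrays. All hypoxia arrays lay above all ambient arrays, and both groups were tight. Plat rose by 0.35 (SE 0.06, 95% interval 0.20 to 0.49), which is 1.27-fold (limma adjusted p = 0.0237). This call was lost when any 1 array other than hypoxia replicate 3 was left out, with the adjusted p up to 0.0735 and down to 0.0163 over all alternatives.

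Plau encodes urokinase, the activator tied to cell migration. Its brighter probe set, 1387675_at, was at 9.85, 9.86 and 9.77 in hypoxia, against 9.97, 9.66 and 9.52 in ambient. The highest value of all was an ambient one, so the groups overlapped. The difference was 0.11 (95% interval -0.14 to 0.37, limma adjusted p = 0.587). The second probe set, 1398287_at, differed by 0.07 (-0.26 to 0.41, adjusted p = 0.797), and its groups overlapped too.

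Plaur, the urokinase receptor, had 1 probe set above background and 1 at background. The probe set 1387269_s_at, whose suffix marks probes that can match more than 1 transcript, was at 7.94, 7.60 and 7.76 in hypoxia, against 7.42, 7.28 and 7.43 in ambient. The groups did not overlap, and the difference of 0.39 (SE 0.10, 1.31-fold) missed the threshold (limma adjusted p = 0.0693), passing in 1 of 15 alternatives, array weights (0.032). The probe set 1371286_at lay at 3.79 to 4.02 in hypoxia and 3.89 to 4.39 in ambient, under the highest bacterial control of its own array on all 6 arrays, and gives no fold.

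Serpine2 encodes protease nexin, an inhibitor of thrombin, urokinase and tissue plasminogen activator. Its probe set was at 12.997, 13.20 and 13.07 in hypoxia, against 12.84, 12.60 and 12.96 in ambient. The groups were separated by a gap of only 0.038 between hypoxia replicate 1 and ambient replicate 3. The difference was 0.29 (SE 0.09, 1.22-fold) and did not pass (limma adjusted p = 0.113), nor did it under any of the 15 alternatives. Serpinb2, the plasminogen activator inhibitor known from macrophages and human placenta, was at 3.51 to 3.73 in hypoxia and 3.41 to 3.65 in ambient, under the highest bacterial control on all 6 arrays. No level of Serpinb2 above background was measured in either group.

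F3, tissue factor, was the member with the smallest p. Its values were 10.68, 10.15 and 10.40 on the hypoxia arrays, against 11.64, 11.37 and 11.47 on the ambient arrays. The highest hypoxia array lay 0.69 below the lowest ambient array. F3 fell by 1.08 on the log2 scale (SE 0.13, 95% interval -1.38 to -0.78), so the ambient level was 2.11-fold that in hypoxia, with a limma adjusted p of 0.00713. Its p ranked 94 among the 18625 probe sets. The call held in all 15 alternatives, with differences from -1.22 to -0.95 and adjusted p from 0.00138 to 0.0332.

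Summed markers of epithelium, a tissue that also carries tissue factor, of macrophages and of natural killer cells were lower on the arrays where F3 was. Of 10 epithelial markers, a list drawn up after the values of F3 were seen, 6 were kept, and 3 of them, Epcam, Cdh1 and Ocln, fell and 0 rose. The log2 of their summed level was 9.15 to 9.69 in hypoxia and 9.91 to 10.37 in ambient. The cell adhesion gene Epcam was at 7.70, 6.26 and 6.34 in hypoxia, against 8.91, 8.10 and 8.59 in ambient. Within each group, replicate 1 had the highest and replicate 2 the lowest value of F3, of Epcam and of the summed epithelial markers. Epcam is part of that sum and was its brightest marker in ambient, so its order and that of the sum are not separate matches. The order of the arrays was not tested, and with 3 arrays per group a like order can arise by chance. None of the 6 kept epithelial markers was at background, and Cldn4, Muc1, Esrp1 and Cdh16 were below the filter. The keratins Krt7 and Krt8, which epithelium shares with trophoblast, rose by 1.05 and 0.88. The keratin Krt19 was lower by 0.43 and did not pass (limma adjusted p = 0.259). Of 7 kept macrophage markers, 1 fell (Cd163, by 1.05 on the log2 scale) and 0 rose, with a summed level of 11.75 to 11.86 in hypoxia and 11.93 to 12.0045 in ambient. Going by sign, 6 of the 7 were lower, Cd68 (-0.06) and Cd14 (-0.09) by little, and Adgre1 was higher by 0.06. Of the 9 natural killer cell markers, 4 fell (Cst7, Nkg7, Eomes and Il2rb) and 0 rose, with a summed level of 15.22 to 15.36 in hypoxia and 15.51 to 15.70 in ambient. By sign alone 8 of the 9 were lower, Klrb1a (-0.06) and Ncr1 (-0.01) by little. Klrd1 was higher by 0.52 and did not pass (limma adjusted p = 0.192). The part of any of these cell types in the fall of F3 was not tested. Of the decidual stroma list, 2 of 7 kept markers rose (Hand2 and Bmp2) and 0 fell. The mean of Bmp2 was 6.58 in hypoxia and 5.67 in ambient. The ambient mean lay below the filter's bound of 5.74, so Bmp2 was kept through its hypoxia values. It was above the bacterial controls on every array.

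Tfpi encodes the inhibitor that shuts down the complex of tissue factor and factor VII. Its brighter probe set, 1368323_at, was at 12.26, 12.43 and 12.79 in hypoxia, against 11.73, 11.88 and 11.14 in ambient. The lowest hypoxia array was 0.37 above the highest ambient array. Tfpi rose by 0.91 at this probe set (SE 0.20, 95% interval 0.45 to 1.37), or 1.87-fold (limma adjusted p = 0.0412). At the second probe set, 1389780_at, values were 9.19, 9.24 and 9.73 in hypoxia, against 8.79, 8.83 and 7.96 in ambient. The groups again did not overlap, and the difference was 0.86 (SE 0.24, adjusted p = 0.0793). The call of the brighter probe set was lost without any 1 array (adjusted p 0.0558 to 0.0938), with array weights, with a robust trend and without a mean-variance trend, over a range from 0.0378 to 0.0938.

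**Figure D2:**
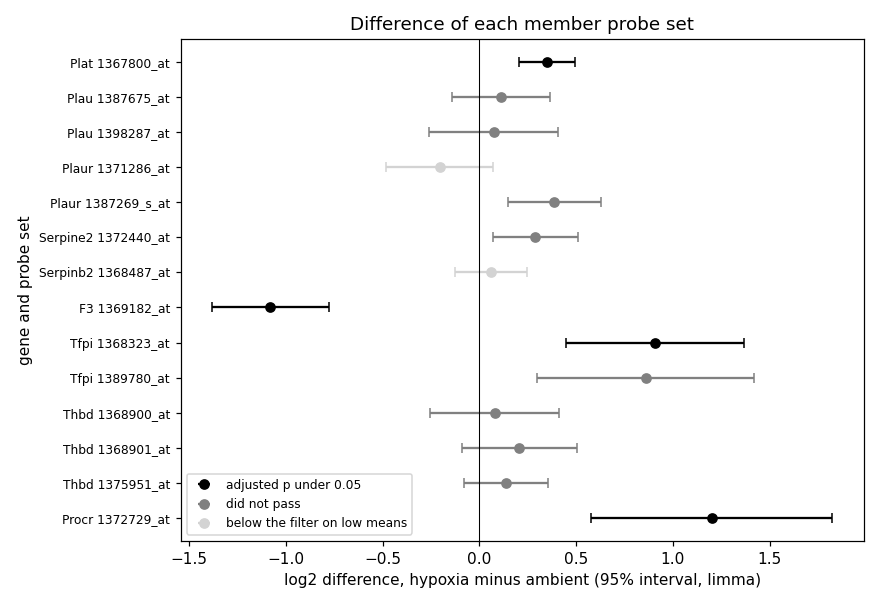
Log2 difference, hypoxia minus ambient, of each member probe set with its 95% interval from limma (horizontal axis), in black where the adjusted p was under 0.05, in grey where it was not and in light grey where the probe set was below the filter on low means. F3 lies at -1.08, the other negative point is a Plaur probe set below the filter, and Procr (1.20) and both probe sets of Tfpi (0.91 and 0.86) lie farthest to the right.

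The change of Tfpi and that of F3 were also read together on each array. The log2 value of Tfpi (1368323_at) minus that of F3 was 1.58, 2.28 and 2.38 in hypoxia, against 0.096, 0.51 and -0.33 in ambient. The zero of this scale has no meaning, since the signals come from different probes, but its shift does. The difference averaged 2.08 ± 0.44 in hypoxia and 0.094 ± 0.42 in ambient (SD, n = 3 each), a shift of 1.99, or 3.97-fold, toward the Tfpi transcript. This shift joins the differences of Tfpi and F3 given above, so it is not a separate result. The pair was chosen with the values known and the shift is given without a test.

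Thbd encodes thrombomodulin, the endothelial receptor that binds thrombin. Its 3 probe sets differed by 0.08 (1368900_at), 0.21 (1368901_at) and 0.14 (1375951_at), and all 3 had groups that overlapped. The probe set 1375951_at, the brightest, was at 9.18, 9.36 and 9.24 in hypoxia, against 9.24, 9.19 and 8.94 in ambient. Its 95% interval was -0.08 to 0.35 (limma adjusted p = 0.421), and the widest reach among the 3 was 0.50, at 1368901_at (adjusted p = 0.374). The probe set 1368900_at was at 7.66, 7.05 and 7.38 in hypoxia, against 7.30, 7.23 and 7.31 in ambient. Hypoxia arrays spread on both sides of the ambient ones there, and without hypoxia replicate 1 the difference was -0.069.

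Procr encodes the receptor that presents protein C to thrombomodulin. Its values were 10.64, 10.32 and 11.34 on the hypoxia arrays, against 10.01, 9.39 and 9.30 on the ambient arrays. The groups did not overlap, hypoxia replicate 3 was the highest and ambient replicate 3 the lowest. Procr rose by 1.20 (SE 0.27, 95% interval 0.58 to 1.82), or 2.30-fold (limma adjusted p = 0.0436). The call was lost without hypoxia replicate 1 (0.097), hypoxia replicate 3 (0.0562), ambient replicate 2 (0.124) or ambient replicate 3 (0.148), with no mean-variance trend (0.0568) and with a robust trend (0.063), over a range from 0.022 to 0.148. The difference was 0.91 without hypoxia replicate 3 and 1.42 without ambient replicate 1. Whether Procr and Thbd differed in their response was not tested.

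**Figure D3:**
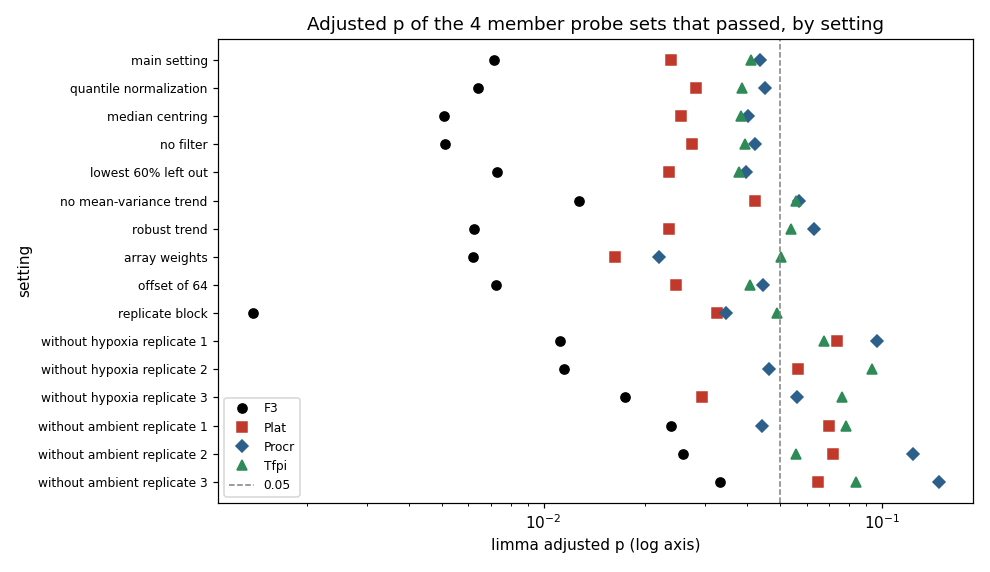
Limma adjusted p (horizontal log axis) of the 4 member probe sets that passed, under the setting reported and 15 alternatives (rows), with the threshold of 0.05 dashed. F3 (black circles) stays left of the line in every row, while Plat, Procr and Tfpi cross it in most rows that leave out an array.

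Summed markers of trophoblast, endothelium, red cells and decidual stroma, and some platelet and neutrophil markers, were higher on the arrays where Tfpi and Procr were. Of 11 kept trophoblast markers, 7 rose and 0 fell. Krt19, also on this list, was lower by 0.43 and did not pass (limma adjusted p = 0.259). The log2 of the summed level of the 11 was 13.77, 13.89 and 14.16 in hypoxia, against 12.80, 12.62 and 11.61 in ambient. Prl7b1 and Prl5a1, the brightest markers, weigh most in this sum. Hypoxia replicate 3 was the highest and ambient replicate 3 the lowest array for this sum, for Procr and for both probe sets of Tfpi. The full order of the arrays in this sum was neither that of Procr nor that of Tfpi. Within each group, the decidual stroma sum had the order of Procr. Of 11 kept endothelial markers, 6 rose and 0 fell, and their summed level was 13.18, 13.23 and 13.13 in hypoxia, against 12.95, 12.87 and 12.91 in ambient. In the endothelial sum, hypoxia replicate 3 was the lowest of its group and ambient replicate 2 the lowest overall. The order of the arrays was not tested, and with 3 arrays per group a like order can arise by chance. Of 5 kept red cell markers, 4 rose (among them Alas2 by 2.30 and Hbb by 1.28) and 0 fell, with a summed level of 14.14 to 14.46 in hypoxia and 12.88 to 13.34 in ambient. Ahsp, also among those that rose, had a mean of 7.56 in hypoxia and 5.61 in ambient. Its ambient mean lay below the filter's bound of 5.74, so Ahsp was kept through its hypoxia values. It was above the bacterial controls on every array. The decidual stroma sum was 15.35 to 15.70 in hypoxia and 15.15 to 15.23 in ambient. Among its bright markers, Prl8a2 differed by 1.73 without passing (limma adjusted p = 0.0683), Des by 0.20 and Dcn by 0.0059. Hand2 and Bmp2, which rose, were dimmer and weigh little in this sum. Of 4 kept platelet markers 0 passed, and their sum was 9.02 to 9.19 in hypoxia and 8.73 to 8.91 in ambient. By sign alone 2 were higher and 2 lower, and the sum is mostly Pf4 (8.44 in hypoxia, 8.03 in ambient). Of 3 kept neutrophil markers, S100a9 rose by 1.67 and S100a8 by 1.38. The third, Lcn2, went the other way, with a difference of -1.93 that did not pass (limma adjusted p = 0.125). The summed neutrophil level overlapped, at 9.90 to 10.32 in hypoxia and 9.79 to 10.86 in ambient. Without ambient replicate 3 the difference of Tfpi was 0.68 and that of Procr 1.06. Elf5 and Cdh5 were the trophoblast and endothelial markers not kept, and the part of any of these cell types in the rises was not tested.

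**Figure D4:**
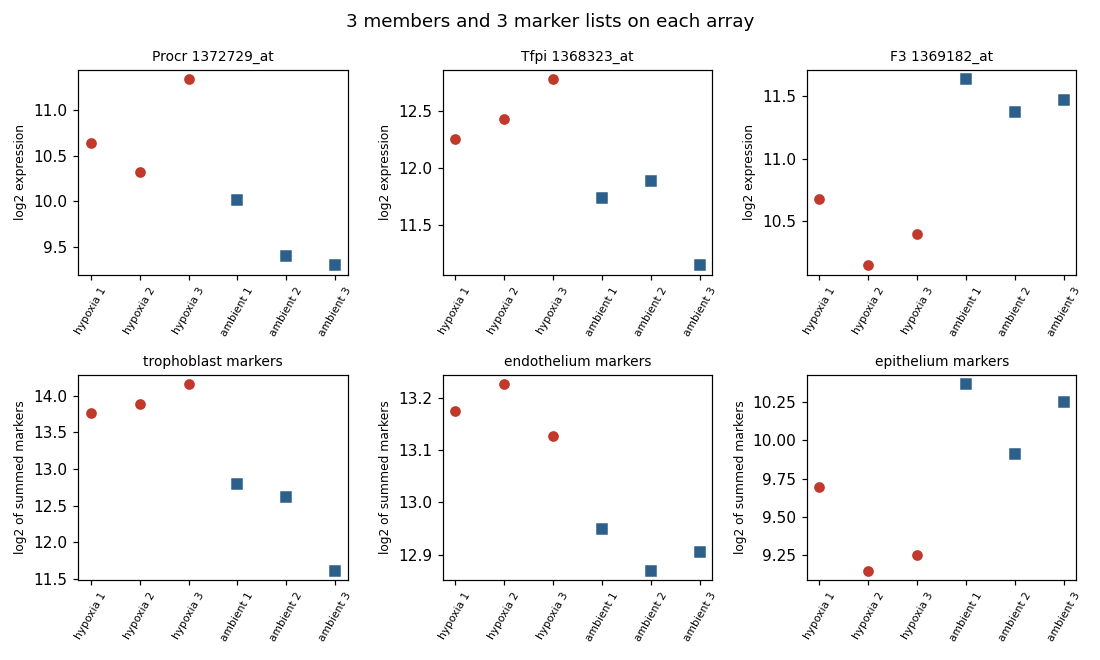
Log2 expression of Procr, Tfpi and F3 (upper row) and log2 of the summed linear signal of trophoblast, endothelial and epithelial markers (lower row) on each of the 3 hypoxia (red circles) and 3 ambient (blue squares) arrays, with a vertical scale of its own in each panel. Ambient replicate 3 is lowest for Procr, Tfpi and the trophoblast sum. F3 and the epithelial sum, from a list drawn up after F3 was seen, share the order of arrays within each group. No order was tested, and with 3 arrays per group a like order can arise by chance.

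The start regions of Procr and Tfpi are shown because both genes rose. RefSeq's promoter table (build GRCr8) held 6 of the 9 genes, and F3, Plat and Thbd were not among them. The 250 bases before each transcript start are given 5′ to 3′ on the gene's own strand. Capitals mark matches, on either strand, to GCGTG or ACGTG, the core of hypoxia response elements, to TGANTCA, the AP-1 motif, and to GGGCGG, the GC box; the search covered these 4 motifs, and overlapping matches were merged.
Procr, chr3:164714477-164714726, plus strand: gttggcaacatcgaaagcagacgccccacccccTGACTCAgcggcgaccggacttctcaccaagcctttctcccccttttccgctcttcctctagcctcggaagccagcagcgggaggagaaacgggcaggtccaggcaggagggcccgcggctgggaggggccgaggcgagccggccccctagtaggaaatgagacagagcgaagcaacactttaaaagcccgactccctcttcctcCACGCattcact
Tfpi, first start, chr3:89980725-89980974, minus strand: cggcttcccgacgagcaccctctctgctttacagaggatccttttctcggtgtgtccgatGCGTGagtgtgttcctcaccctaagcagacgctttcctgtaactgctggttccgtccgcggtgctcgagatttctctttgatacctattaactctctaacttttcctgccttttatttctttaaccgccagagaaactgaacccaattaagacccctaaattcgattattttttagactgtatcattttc
Tfpi, second start, chr3:89983544-89983793, minus strand: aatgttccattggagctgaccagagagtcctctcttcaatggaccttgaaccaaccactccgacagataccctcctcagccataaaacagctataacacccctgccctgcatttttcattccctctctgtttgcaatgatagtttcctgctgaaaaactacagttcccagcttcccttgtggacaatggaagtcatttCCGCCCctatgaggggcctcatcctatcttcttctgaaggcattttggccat
The Procr region held GCGTG on the opposite strand, 12 bases before the start, and TGACTCA at 217 bases before it. The first Tfpi region held GCGTG at 190 bases before the start, and the second only a GC box at 52 bases. Plau, which did not pass at either probe set, also held GCGTG, 7 bases before its start, and TGANTCA lay in the regions of Plaur and Serpinb2. The core GCGTG was found in 25.9%, ACGTG in 16.6% and either of them in 36.7% of the 33465 promoters of this length. Among the 6 members searched, GCGTG was found in 3 and ACGTG in 0. The shares are per region, while Tfpi was counted once over both its regions, so the counts and shares are not like for like. TGANTCA was found in 6.34% and GGGCGG in 30.5%, and matches describe these letters only.

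Genes whose pattern over the 6 arrays lay closest to each member that passed were found by the root mean square distance between centred log2 values among 12375 probe sets. For F3 these were Isyna1 (0.078), an enzyme of inositol synthesis, the water channel Aqp5 (0.15) and the anion transporter Slco4a1 (0.15). All were lower in hypoxia, a direction that follows from their being chosen by closeness to F3. Isyna1 was at 10.15 ± 0.19 in hypoxia and 11.14 ± 0.19 in ambient (SD, n = 3 each). For Tfpi they were the keratin Krt18 (0.11), Fxyd6 (0.15) and S100b (0.17). For Procr they were Izumo1r (0.19), Plet1 (0.20), a surface protein known from mouse trophoblast progenitors, and Slc6a3 (0.21), and for Plat they were Clic5 (0.019), Clmp (0.022) and Slc12a4 (0.022). The distances grow with the size and spread of the member's own values, so they rank genes within a member only.

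Of the other genes of clotting and fibrinolysis, 1 passed the test. Of 49 further genes listed, 42 were on the array under their own symbol and the other 7 were not analysed here. After the filter 25 were kept, and of these 1 rose (Vwf), 0 fell and 24 did not pass by limma, while 6 had an unadjusted p under 0.05. Over all kept probe sets, 23.7% had an unadjusted p under 0.05, a share near that among the 25. With 1 probe set per gene, 6.7% of all genes kept passed, 4.48% higher and 2.23% lower. The median difference of the 25 was 0.031.

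Vwf, which tethers platelets and carries factor VIII, was the pathway gene that passed. It was at 8.23, 8.14 and 8.14 in hypoxia, against 6.91, 6.76 and 7.24 in ambient. It rose by 1.20 (SE 0.12, limma adjusted p = 0.00471), and Vwf is also on the endothelial list above. Platelet markers gave no call among 4 kept, with 1 (Pf4, 0.41, adjusted p = 0.053) at an unadjusted p under 0.05.

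Among the anticoagulants, Entpd1, which removes the platelet agonist ADP, was at 8.79, 8.58 and 8.86 in hypoxia, against 9.17, 9.05 and 9.41 in ambient. The groups did not overlap and the difference of -0.46 (SE 0.11) missed the threshold (limma adjusted p = 0.0525), passing in 5 of 15 alternatives. Tfpi2, a relative of Tfpi that inhibits plasmin and is abundant in human placenta, differed by 1.10 (SE 0.32, adjusted p = 0.0897). Pros1, the cofactor of protein C, differed by 0.13 (adjusted p = 0.214), and the thrombin receptor F2r by 0.0088 (95% interval -0.15 to 0.17).

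In the plasminogen system, 9 genes were kept and 0 passed by limma, while 2 had an unadjusted p under 0.05, near the 23.7% over all kept probe sets. The 2 genes were St14, a membrane protease of epithelium (-0.49, adjusted p = 0.111), and Anxa2, part of a surface receptor for plasminogen and tissue plasminogen activator (-0.16, adjusted p = 0.165). S100a10, the partner of Anxa2, differed by 0.09 (adjusted p = 0.241), and the general protease inhibitor A2m by 0.018. In the cascade, F8 differed by 0.34 (adjusted p = 0.109).

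**Figure D5:**
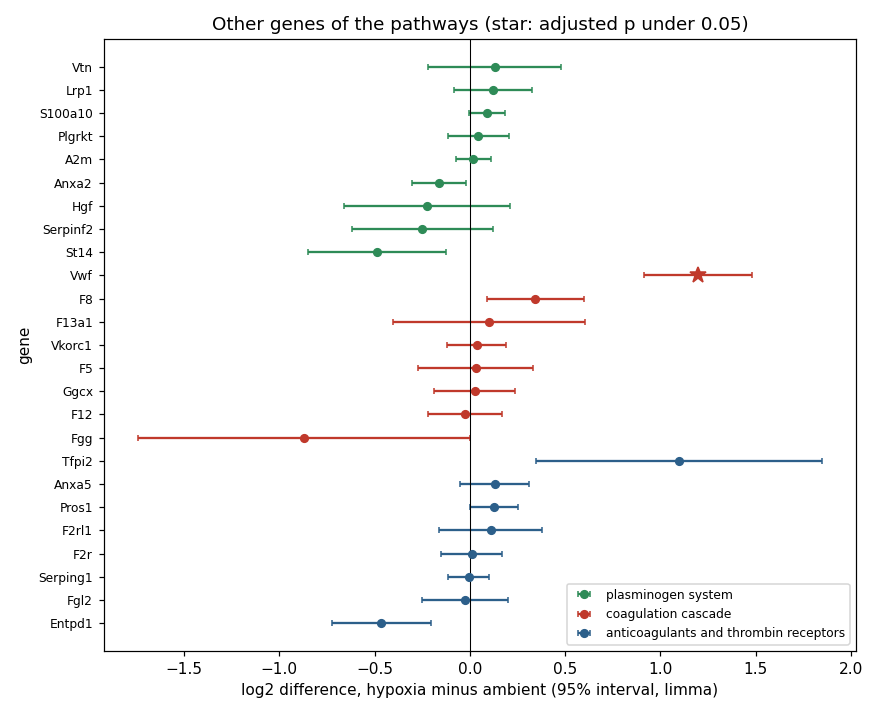
Log2 difference, hypoxia minus ambient, with its 95% interval from limma (horizontal axis) for the 25 other pathway genes kept, coloured by list, with a star for an adjusted p under 0.05. Vwf (1.20) carries the star, and the interval of Fgg and that of Tfpi2 are the widest.

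Several plasma proteins made mainly by liver were at background, while others such as Vtn, F5, F12 and Fgg were above the bacterial controls on all 6 arrays. Of the 17 pathway genes below the filter, 10 had no probe set above the highest bacterial control of its own array on any of the 6 arrays, among them Plg (plasminogen), F2 (prothrombin), F9, F10, Fga and Fgb. The 6 hypoxia and ambient values of the Plg probe set overlapped, and its mean was 4.50 in hypoxia and 4.49 in ambient. The arrays measure transcripts, so they say nothing of the plasma level of these proteins.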

How the data were processed

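Per the labels' protocols, RNA of 6 metrial gland samples was taken up in Trizol, and biotinylated cRNA was hybridised to Affymetrix arrays, 1 sample per array. The authors deposited log2 values, 1 per probe set and array; the scale follows from their range of 2.98 to 14.9. MAS5 and Affymetrix Expression Console stand in the submitters' processing notes without role or version; how background, summary and scaling were handled is not given in the sources used here. A method that equalises arrays hides a change shared by most genes, and strong background correction or compression shrinks differences of dim probe sets.

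From these values, 57 control probe sets and the 40% of the others with the lowest mean over all arrays (below 5.74) were left out, which kept 18625. Hypoxia was compared with ambient with limma 3.58.1 in R 4.3.3 (lmFit, eBayes with a mean-variance trend, two-sided, Benjamini-Hochberg over all kept probe sets, threshold 0.05). The design had allowed for linear or log2 values, and log2 values were used as deposited. Members took every probe set carrying their symbol alone in the platform annotation; RefSeq's gene table (GRCr8) changed 0 symbols. Other pathway genes and markers took the kept probe set with the highest mean. Background was read from 27 bacterial control probe sets. The named genes were all members, pathway genes past the threshold or, failing it, those with the smallest p, the 3 nearest patterns per member that passed, and marker genes as context; further genes were named after their values were seen. The members and lists were chosen with earlier results of these data known. The number of arrays limits the precision. The fit was tested on simulated data. Alternatives were quantile normalization, median centring, no filter or a 60% filter, no trend, a robust trend, array weights, an offset of 64, the replicate block, and each array left out. No batch could be told from the labels.

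Same-numbered arrays of the groups correlated in their deviations from the group means at 0.012, 0.071 and 0.07 across probe sets, so the numbers were not treated as pairing the samples.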

Additional observations from a re-analysis of the deposited data

How the results depend on the processing

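The fall of F3 kept its direction and its call in all 15 alternatives. Of the member probe sets, 3 were higher; 1 was higher with no mean-variance trend and 1 with a robust trend, and 0 to 1 with any 1 array left out, where fewer samples enter the fit. The 1 lower member was found under every alternative. No member that passed changed sign. Of the other pathway genes, 1 was higher and 0 lower; 2 were higher with array weights, 2 with the replicate block and 1 to 2 with 1 array left out. There was 1 lower with quantile normalization, 1 with median centring, 1 with the 60% filter, 1 with a robust trend and 3 with the replicate block. Over all probe sets 749 were higher and 367 lower; with 1 array left out, 223 to 683 were higher and 44 to 346 lower, and with no mean-variance trend 241 were lower. The replicate block, a fit on numbers that were not shown to pair the samples, gave 797 higher and 520 lower and kept the same 4 member calls, with F3 at an adjusted p of 0.00138 and Tfpi at 0.0489. Apart from the arrays left out, the cause of these shifts was not tested. Signal at or below the bacterial controls limits Serpinb2 and 1 probe set of Plaur, for which no change could be read.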

Other observations

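Tfpi2 and Fgg had the widest 95% intervals among the 25 other pathway genes kept. Tfpi2, from the same inhibitor family as Tfpi, was at 6.82, 5.56 and 6.93 on the hypoxia arrays, against 5.49, 5.23 and 5.30 on the ambient arrays. Hypoxia replicate 2 stood near the ambient arrays. All 3 ambient values lay below the filter's bound of 5.74, so the probe set was kept through its hypoxia values. It did not pass (limma adjusted p = 0.0897), and over its alternatives the adjusted p ran from 0.00345, without hypoxia replicate 2, to 0.219.

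Fgg, the gamma chain of fibrinogen, was at 5.83, 5.45 and 6.71 in hypoxia, against 6.90, 6.23 and 7.49 in ambient. The groups overlapped and the difference was -0.87 (limma adjusted p = 0.212). The other chains, Fga and Fgb, lay under the highest bacterial control on all 6 arrays at each of their probe sets.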
